A study of Mus musculus with 8 samples.

Results

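The guanylate-binding proteins (GBPs) and the immunity-related GTPases (IRGs) are GTPases that cells make after exposure to interferon. They bind the vacuole around an intracellular parasite or bacterium, or the bacterium itself, and help to break it open and to alert the inflammasome. In macrophages the bacterial lipopolysaccharide LPS is sensed by TLR4, which drives interferon beta; secreted interferon then acts through its receptor and the kinases JAK1 and TYK2 to switch on target genes. Most IRGs are effectors that load onto vacuoles, whereas the IRGM proteins Irgm1, Irgm2 and Igtp (also called Irgm3) sit on the cell's own membranes and hold the effectors inactive there. The 10 genes described were taken by symbol from the deposited expression table of 55226 genes. They are 6 guanylate-binding proteins (Gbp2, Gbp3, Gbp5, Gbp6, Gbp7 and Gbp9) and 4 immunity-related GTPases (Irgm1, Irgm2, Igtp and Iigp1), and all 10 were among the 11543 genes with enough signal to be tested.

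RNA was sequenced from bone marrow-derived macrophages of C57BL/6 mice of 2 genotypes, PtipWT (WT) and PtipcKO (cKO). PTIP, the protein of Paxip1, is a partner of a histone H3K4 methyltransferase complex, and the series title names it as a regulator of inflammatory responses. Marrow from the femurs of both genotypes was grown with 10 ng/ml M-CSF, a macrophage growth factor, and 10% FBS for 7 days, and the cells then received 100 ng/ml LPS for 0 or 6 h. Each combination of genotype and time, 4 groups in all, held 2 samples, which the series text describes as biological replicates. The sources used here do not give age or sex, the Cre driver or the deleted exons, and nothing says that the 2 samples of a group came from separate mice. P-values therefore measure the spread between these samples, which may be technical.

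Values are rlog, a log2 expression scale that shrinks genes of low read number toward their average, and a difference of 1 is a doubling on that scale. Read counts were not used, so depth is unknown. Paxip1, the targeted gene, was lower in all 4 cKO samples than in all 4 WT samples. The WT samples had rlog values of 4.50 and 4.50 at 0 h, and of 3.82 and 4.08 with LPS. The cKO samples had 2.54 and 2.48 at 0 h, and 2.54 and 2.63 with LPS. Of 7 macrophage markers (Adgre1, Csf1r, Cd68, Mertk, Fcgr1, Lyz2 and Itgam), 7 passed the filter on low values. The neutrophil list had 2 of 8 genes past it, the dendritic cell list 3 of 5 and the B cell list 1 of 5. None passed of the 8 T and NK cell markers and the 4 fibroblast markers.

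The promoters of these genes are shown first because LPS raised all 10 together. RefSeq windows from 250 bases before to 50 bases after a transcript start (GRCm38.p6) were held for 7 of the 10 genes: Gbp2, Gbp3, Gbp5, Gbp7, Irgm1, Irgm2 and Igtp. No window was matched for Gbp6, Gbp9 and Iigp1. The windows were searched on both strands for 3 motifs. The first was the core of the interferon-stimulated response element (ISRE), GAAANNGAAA, which binds IRF proteins. The second was the gamma-activated site (GAS), TTCNNNGAA, named for interferon gamma. The third was a kappaB site, GGGA and TTTCC with any 1 base between them, which binds NF-kappaB. An ISRE core was found in 7 of 7 genes, and in 7 of their 8 windows since Gbp3 has a further window without it, against 3.44% of all 32851 windows. A GAS was found in 4 of 7 genes, Gbp5, Gbp7, Irgm2 and Igtp, against 8.3% of all windows. The kappaB site was found in 1 of the 7, Gbp5, against 0.41% of all windows. Of 17 related GTPase genes, 8 had a window, and 5 of these held an ISRE core, 3 a GAS and 0 the kappaB site.

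The stretches that hold these matches end just before the transcript start, except that those of Gbp2 and Gbp5 stop earlier. They were cut so that at most 30 annotated untranslated bases are shown. Each is written 5′ to 3′ along its gene, with every match in capitals, and the ISRE core read on the other strand appears as TTTC, any pair of bases and TTTC. Those of the chromosome 3 genes lie at chr3:142496764-142496929 (Gbp5), chr3:142530226-142530335 (Gbp7), chr3:142559934-142560043 (Gbp3) and chr3:142620553-142620631 (Gbp2), all on the plus strand. On chromosome 11 the stretch of Irgm1 lies at chr11:48871421-48871530 on the minus strand, that of Igtp at chr11:58199446-58199555 and that of Irgm2 at chr11:58214867-58214976, both on the plus strand.
Gbp5: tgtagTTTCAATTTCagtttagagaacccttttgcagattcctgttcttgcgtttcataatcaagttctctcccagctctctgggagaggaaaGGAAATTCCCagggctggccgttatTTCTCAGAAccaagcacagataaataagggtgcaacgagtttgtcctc
Gbp7: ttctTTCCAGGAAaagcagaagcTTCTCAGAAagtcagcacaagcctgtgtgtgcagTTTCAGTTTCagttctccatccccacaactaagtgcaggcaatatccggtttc
Gbp3: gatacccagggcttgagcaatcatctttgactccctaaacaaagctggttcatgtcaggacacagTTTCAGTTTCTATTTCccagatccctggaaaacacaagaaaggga
Gbp2: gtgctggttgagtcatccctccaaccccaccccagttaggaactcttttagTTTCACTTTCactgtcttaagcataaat
Irgm1: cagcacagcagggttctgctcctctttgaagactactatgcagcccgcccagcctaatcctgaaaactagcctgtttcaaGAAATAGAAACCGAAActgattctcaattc
Igtp: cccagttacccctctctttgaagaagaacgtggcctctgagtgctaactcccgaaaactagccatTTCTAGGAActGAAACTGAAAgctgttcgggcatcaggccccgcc
Irgm2: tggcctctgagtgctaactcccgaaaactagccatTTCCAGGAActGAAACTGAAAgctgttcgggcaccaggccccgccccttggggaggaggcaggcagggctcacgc
In Gbp5 the ISRE core lay at bases -165 to -156 from the transcript start, the kappaB site at -77 to -68 and a GAS at -52 to -44. A further GAS of Gbp5 lay at -245 to -237, outside the printed stretch. Gbp7 held an ISRE core at -53 to -44 and GAS matches at -106 to -98 and -87 to -79. Gbp2 held a single ISRE core at -59 to -50. In Gbp3 and Irgm1 a pair of ISRE cores overlapped, at -45 to -36 and -39 to -30 in Gbp3 and at -30 to -21 and -24 to -15 in Irgm1. Igtp and Irgm2 carried the same arrangement, a GAS followed by an ISRE core, at -45 to -37 and -34 to -25 in Igtp and at -75 to -67 and -64 to -55 in Irgm2. The windows of these neighbouring genes were 72.84% identical over 335 aligned columns, and no other pair of the 7 genes exceeded 51.06%. A match is a description of the sequence and shows no binding.

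**Figure D1:**
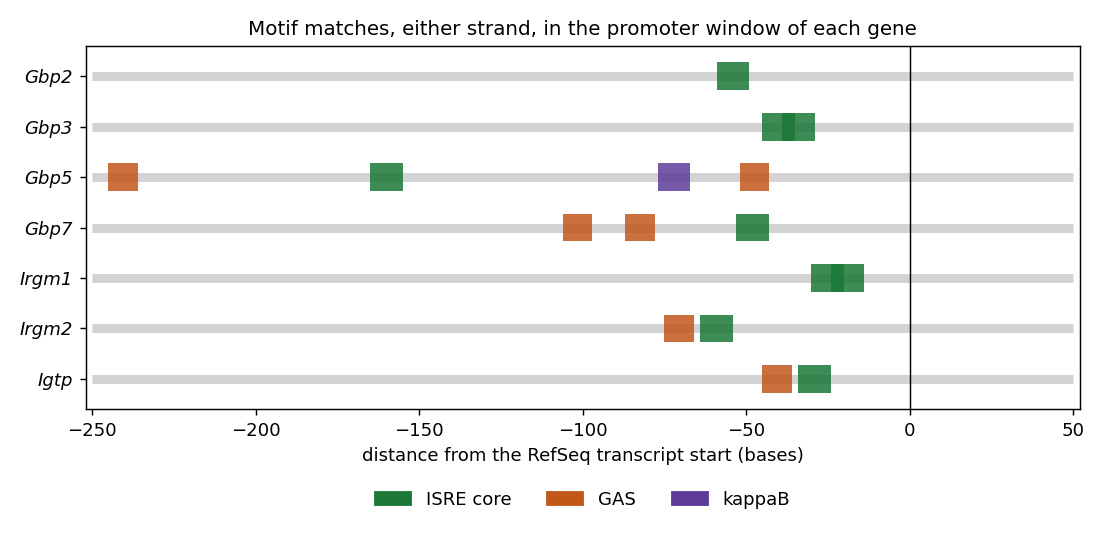
Motif matches on either strand in the promoter windows of 7 genes, plotted by distance in bases from the RefSeq transcript start, with each grey bar the window and each box a match. Each of the 7 plotted windows, 1 per gene, shows an ISRE core upstream of the start, at -165 to -156 in Gbp5 and between -64 and -15 in the other 6, and the kappaB box appears in Gbp5 alone.

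In the GENCODE M21 annotation of GRCm38 the genes lie on 4 chromosomes. Gbp5 (142493978 to 142522344), Gbp7 (142530342 to 142550149), Gbp3 (142560026 to 142573209) and Gbp2 (142620602 to 142638008) stand in a row on the plus strand of chromosome 3. Gbp9 (105077630 to 105139539) and Gbp6 (105270702 to 105293698) lie on the minus strand of chromosome 5. Irgm1 (48861968 to 48871683, minus strand) is on chromosome 11, as are Igtp (58199556 to 58207591) and Irgm2 (58199618 to 58222782) on the plus strand. Iigp1 (60376027 to 60392634, plus strand) is on chromosome 18. All 10 are annotated as protein coding. For Gbp2, Gbp3, Gbp5, Irgm1 and Irgm2 the GENCODE gene begins upstream of the RefSeq start used above. The printed ISRE cores of Gbp2, Gbp5, Irgm1 and Irgm2 lie within the GENCODE gene, whereas those of Gbp3 lie before it.

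Near-identical copies limit some of these values, since the sources used here do not say how reads with several matches were handled. Of the 50-base stretches of the Gbp6 transcripts, 70.65% also occur in transcripts of another gene, mostly Gm43302 (64.98%) and Gbp10 (45.95%). The values of Gbp6 are therefore uncertain. The share was 12.74% for Gbp7, 11.77% for Igtp, 8.05% for Gbp9 and 7.83% for Irgm2, and 0.38 to 3.75% for the other 5 genes. Igtp and Irgm2 share 162 exon bases on the same strand.

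LPS raised all 10 genes in WT macrophages. Gbp5, a prenylated GBP reported to promote inflammasome assembly, had rlog values of 5.97 and 5.74 in WT at 0 h and 11.57 and 11.26 after LPS. The difference was 5.56 (SE 0.19, limma adjusted p = 4.49e-06, n = 2 and 2), 47.0-fold on the rlog scale. Iigp1, an effector IRG also called Irga6 that coats the Toxoplasma vacuole, was 7.97 and 6.21 at 0 h and 12.83 and 12.44 after LPS, a difference of 5.55 (SE 0.59, limma adjusted p = 0.000159). These were the 13th and 14th largest rises of 11543 genes. All 10 differences passed the threshold of 0.05 with limma, from 2.03 (Irgm2) to 5.56, with a median of 3.27 against -0.01 over all tested genes. Of all tested genes 22.5% rose and 19.7% fell. All 10 were also higher in the authors' deposited table, against 8.96% of its genes with an adjusted p.

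The other members of the chromosome 3 row rose by 3 to 4 log2 units in WT. Gbp2, a prenylated GBP that coats parasite vacuoles, was 11.35 and 12.35 at 0 h and 15.44 and 15.36 after LPS. Its difference was 3.55 (SE 0.32). Gbp3 was 9.73 and 10.32 at 0 h and 14.00 and 13.81 after LPS, a difference of 3.88 (SE 0.22). Gbp7, which has been linked to assembly of the phagocyte NADPH oxidase, was 9.72 and 9.58 at 0 h and 12.95 and 12.93 after LPS, a difference of 3.29 (SE 0.25). In each of these genes both LPS samples stood far above both samples at 0 h. The proteins of the chromosome 5 genes have also been seen at the Toxoplasma vacuole. Gbp6 was 8.57 and 8.17 at 0 h and 11.19 and 11.16 after LPS, and Gbp9 was 8.23 and 7.19 at 0 h and 11.18 and 10.75 after LPS. Their differences were 2.80 (SE 0.25) and 3.25 (SE 0.38).

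Among the IRGM regulators in WT, Irgm1 was 10.85 and 10.62 at 0 h and 13.61 and 13.43 after LPS, a difference of 2.78 (SE 0.20). Irgm2 was 9.31 and 8.81 at 0 h and 11.21 and 10.97 after LPS, a difference of 2.03 (SE 0.23), the smallest of the 10. Igtp was 10.54 and 10.06 at 0 h and 13.22 and 12.92 after LPS, a difference of 2.77 (SE 0.26). The 3 regulators thus rose by 2 to 3 log2 units, and the effector Iigp1 by 5.55. The 6 GBPs had a median rise of 3.42 and the 4 IRGs of 2.77 in WT.

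**Figure D2:**
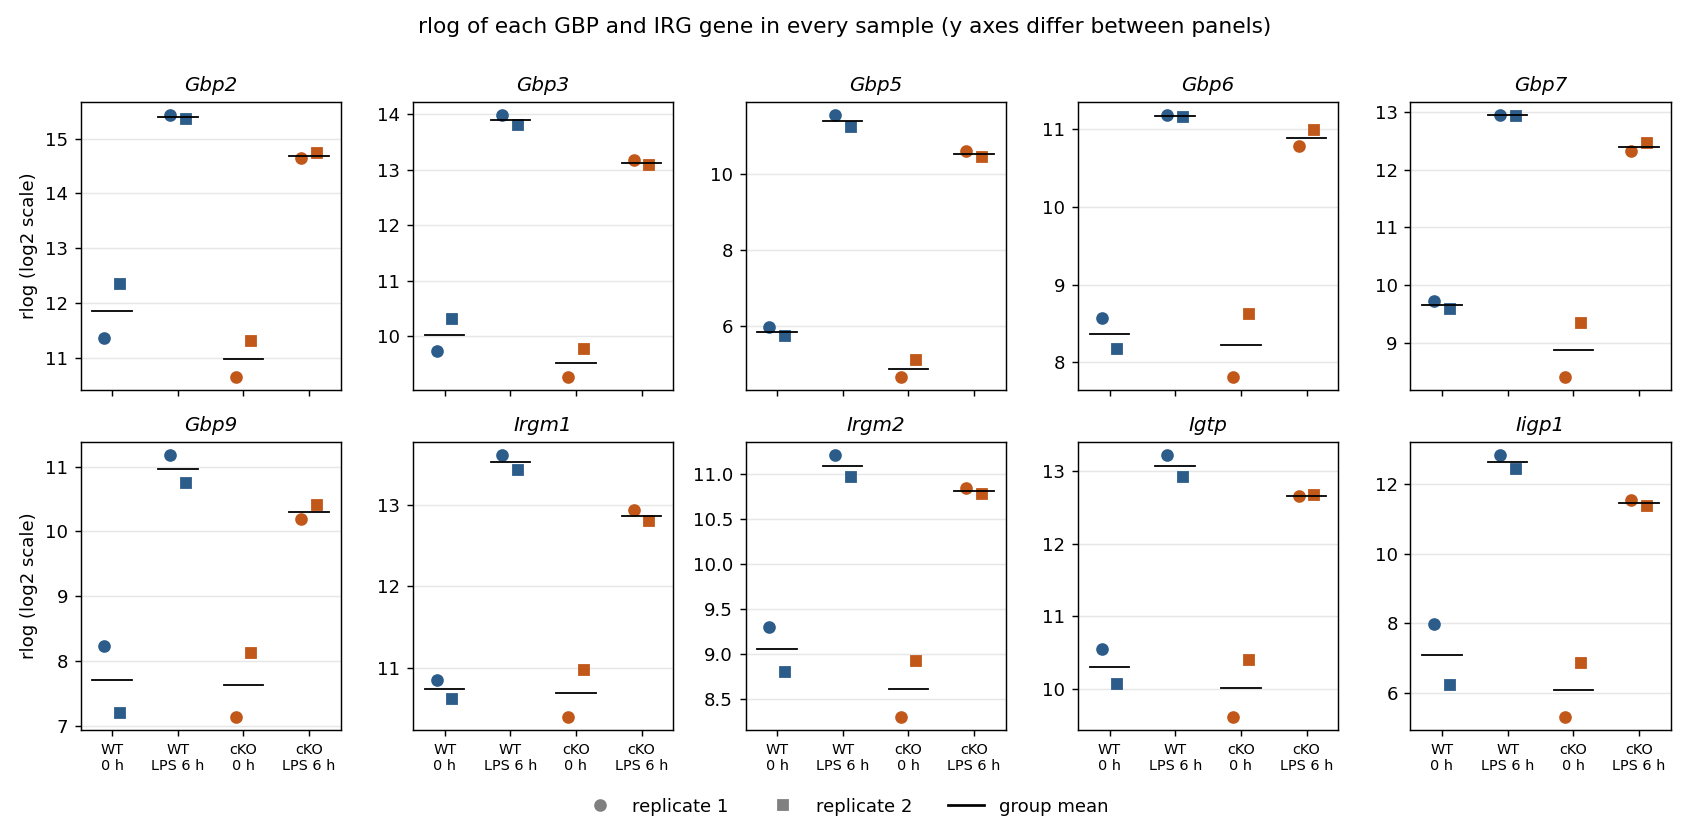
rlog of each of the 10 genes in the 8 samples (y axis, log2 scale that differs between panels; x axis, the 4 groups), with circles for replicate 1, squares for replicate 2 and a line at the group mean. In every panel all LPS samples lie above all 0 h samples of both genotypes, and in these values both cKO samples after LPS lie below both WT samples (in 7 of 10 panels if quantile-normalized).

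LPS also raised all 10 genes in cKO macrophages. Gbp5 was 4.68 and 5.11 at 0 h and 10.62 and 10.47 after LPS, a difference of 5.65 (SE 0.19, limma adjusted p = 4.65e-06). Iigp1 was 5.30 and 6.86 at 0 h and 11.54 and 11.37 after LPS, a difference of 5.38 (SE 0.59, limma adjusted p = 0.00025). The other differences were 3.71 (Gbp2), 3.61 (Gbp3), 3.51 (Gbp7), 2.67 (Gbp9), 2.66 (Gbp6), 2.66 (Igtp), 2.19 (Irgm2) and 2.18 (Irgm1). Their median was 3.09, against -0.02 over all tested genes, of which 19.6% rose and 17.5% fell. In the authors' deposited table the count was again 10 of 10 higher, against 8.73% of its genes.

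**Figure D3:**
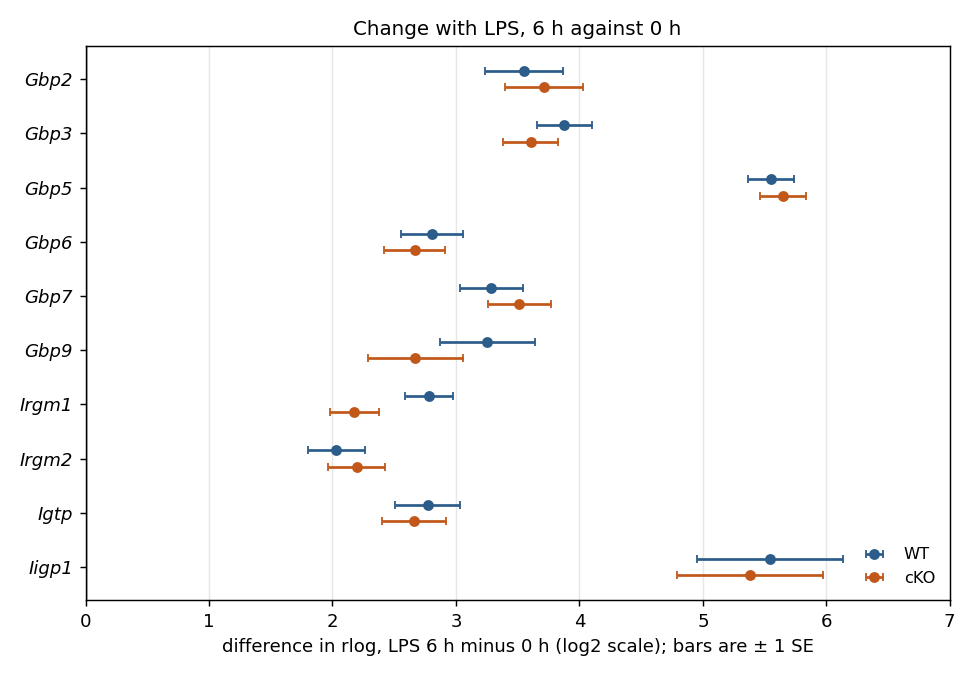
Difference in rlog between LPS and 0 h (x axis, log2 scale) for each gene (y axis) in WT and cKO, with bars of 1 SE on each side from the limma model. Gbp5 and Iigp1 stand apart above 5 in both genotypes, and the widest gap between the genotypes is that of Irgm1, 2.78 in WT and 2.18 in cKO.

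The rise with LPS did not differ detectably between the genotypes. The interaction, the LPS difference in cKO minus that in WT, passed the threshold for 0 of the 10 genes and for 0 of all tested genes with limma (0% of genes), and 0 of the 10 had an unadjusted p under 0.05 against 6.51% of all tested genes. It ran from -0.60 for Irgm1 (95% interval -1.24 to 0.03) to 0.23 for Gbp7 (-0.60 to 1.05), with a median of -0.13. Of its values 4 were positive and 6 negative, and with quantile normalization 8 were positive and 2 negative, with a median of 0.18. The interval for Gbp5 was -0.51 to 0.70 and that for Iigp1 -2.08 to 1.75, so a difference of 1 log2 unit in the rise of Iigp1 lies within its interval. The interval for Gbp2 was -0.86 to 1.19.

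At 0 h no gene of the 10 passed the threshold between cKO and WT. All 10 fitted differences were below 0 (9 of 10 with quantile normalization, where Irgm1 was 0.028), with a median of -0.47 against -0.01 over all tested genes. They ran from -1.01 (Iigp1, SE 0.59, limma adjusted p = 0.589) to -0.05 (Irgm1). Single samples moved these values by more than 1.5 times: leaving out 1 sample gave -1.89 to -0.14 for Iigp1, -1.37 to -0.38 for Gbp2, -1.24 to -0.31 for Gbp7, -0.79 to -0.21 for Gbp3 and -0.75 to -0.13 for Irgm2. With limma 0.052% of all tested genes were called higher and 0.199% lower. Gbp5 had the smallest adjusted p of the 10, with a difference of -0.97 (SE 0.19, limma adjusted p = 0.119). Both its cKO samples, 4.68 and 5.11, lay below both WT samples, 5.97 and 5.74. Gbp2 was 10.65 and 11.30 in cKO against 11.35 and 12.35 in WT, a difference of -0.88 (SE 0.32, limma adjusted p = 0.372). Gbp7 was 8.42 and 9.34 in cKO against 9.72 and 9.58 in WT, a difference of -0.77 (SE 0.25, limma adjusted p = 0.321). These 3 genes were the ones whose groups did not overlap, against 21.9% of all tested genes in that direction. They were also the 3 with an unadjusted p under 0.05, against 6.02%.

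In the other 7 genes the genotypes overlapped at 0 h. Gbp3 was 9.28 and 9.77 in cKO against 9.73 and 10.32 in WT. Irgm1 was 10.40 and 10.98 in cKO, on either side of both WT samples, as was Gbp6 at 7.82 and 8.63. Gbp9 was 7.14 and 8.13 in cKO against 8.23 and 7.19 in WT, and Irgm2 was 8.30 and 8.93 in cKO against 9.31 and 8.81 in WT. Igtp was 9.61 and 10.40 in cKO, and Iigp1 was 5.30 and 6.86 against 7.97 and 6.21 in WT. In each of these 7 the higher cKO sample lay above the lower WT sample. None of the 10 (0 of 10) was called at 0 h in the authors' deposited table, where 0.476% of genes were lower in cKO. Its log2 fold changes were -1.32 for Gbp5, -1.25 for Iigp1 and -1.01 for Gbp2 (adjusted p = 0.112 in that table).

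In the 10 genes the samples of a group differed most at 0 h. Over all tested genes the gap between samples was most variable in WT after LPS (SD 0.40, against 0.36 in WT and 0.37 in cKO at 0 h). In cKO at 0 h, replicate 1 lay below replicate 2 in 10 of the 10 genes, by a median of -0.72 and by -1.56 to -0.43, whereas 49.86% of all tested genes were higher in replicate 1. Iigp1 differed most, 5.30 in replicate 1 and 6.86 in replicate 2. In WT at 0 h, replicate 1 was higher in 8 of 10 genes, Gbp2 and Gbp3 being the exceptions, and the gap for Iigp1 was 1.75. After LPS the gaps were at most 0.42 in WT, where replicate 1 was higher in all 10, and -0.21 to 0.16 in cKO. The 10 genes thus deviated together within a group, in cKO at 0 h by a median gap wider than the median difference between the genotypes.

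After LPS all 10 genes were lower in both cKO samples than in both WT samples (7 of 10 with quantile normalization), and 1 of them, Gbp5, passed the threshold with limma. Gbp5 was 11.57 and 11.26 in WT and 10.62 and 10.47 in cKO, a difference of -0.87 (SE 0.19, limma adjusted p = 0.0426), or 1.83-fold lower on the rlog scale. The share of all tested genes with both cKO samples below both WT samples was 29.7% (26.5% with quantile normalization), and 2.46% were called lower and 1.51% higher. The median difference was -0.66, against -0.03 over all tested genes. Quantile normalization, which gives all samples the same distribution of values, brought this median to -0.29. With it Gbp2 was at -0.25, Gbp7 at -0.17, Igtp at -0.08, Irgm2 at -0.08 and Gbp6 at -0.07, and 0 of the 10 passed. Over all tested genes the calls went from 284 lower and 174 higher to 120 lower and 115 higher. All 10 stayed below 0. An unadjusted p under 0.05 was reached by 3 of the 10, Gbp5, Gbp3 and Irgm1, against 12.7% of all tested genes in that direction. The call of Gbp5 is marginal: it held in 7 of 16 other settings, with an adjusted p from 0.0272 to 0.259 by limma and a difference from -1.03 to -0.62. It was lost on leaving out any 1 of the 4 LPS samples or of the WT samples at 0 h.

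Gbp3 was 14.00 and 13.81 in WT after LPS and 13.17 and 13.09 in cKO, a difference of -0.77 (SE 0.22, limma adjusted p = 0.0887). Gbp2 was 15.44 and 15.36 in WT and 14.64 and 14.73 in cKO, a difference of -0.71 (SE 0.32, limma adjusted p = 0.239). Gbp7 was 12.95 and 12.93 in WT and 12.32 and 12.46 in cKO, a difference of -0.55 (SE 0.25, limma adjusted p = 0.259). In these 3 neighbours of Gbp5 the difference between genotypes was wider than the gap between the samples of either group, as in every other gene of the set. Gbp9 was 11.18 and 10.75 in WT and 10.20 and 10.41 in cKO, a difference of -0.66 (SE 0.38). Gbp6 was 11.19 and 11.16 in WT and 10.78 and 10.99 in cKO, a difference of -0.29 (SE 0.25).

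Of the IRGs after LPS, Irgm1 was 13.61 and 13.43 in WT and 12.93 and 12.80 in cKO, a difference of -0.65 (SE 0.20, limma adjusted p = 0.098). Iigp1 was 12.83 and 12.44 in WT and 11.54 and 11.37 in cKO. Its difference of -1.18 was the widest of the 10, with an SE of 0.59 and a limma adjusted p of 0.291. The SE is shared by all 4 groups, and the samples of Iigp1 at 0 h were further apart than those after LPS. Igtp was 13.22 and 12.92 in WT and 12.66 and 12.67 in cKO, a difference of -0.41 (SE 0.26). Irgm2 was 11.21 and 10.97 in WT and 10.85 and 10.78 in cKO, a difference of -0.28 (SE 0.23). The 95% intervals of 7 of the 10 genes included 0: those of Iigp1 (-2.53 to 0.17), Gbp9 (-1.54 to 0.22), Gbp2 (-1.44 to 0.01), Gbp7 (-1.13 to 0.03), Igtp (-1.01 to 0.19), Gbp6 (-0.86 to 0.29) and Irgm2 (-0.80 to 0.25).

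The authors' deposited table called 5 of the 10 lower in cKO after LPS, against 1.61% of its genes. They were Iigp1 (log2 fold change -1.22, adjusted p = 4.98e-06 in the authors' deposited table), Gbp5 (-0.89, 0.00217), Gbp3 (-0.78, 0.00399), Gbp2 (-0.71, 0.00847) and Irgm1 (-0.65, 0.0286). The other 5 in the authors' deposited table were Gbp9 (-0.68, 0.0679), Gbp7 (-0.53, 0.108), Igtp (-0.39, 0.41), Gbp6 (-0.25, 0.749) and Irgm2 (-0.25, 0.754). The sizes lie close to those of the rlog fit. A limma fit of the rlog values of the 4 LPS samples alone called 3 genes, Gbp3, Gbp5 and Iigp1, with Iigp1 at an adjusted p of 0.0193 and Gbp3 at 0.0352 by limma.

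**Figure D4:**
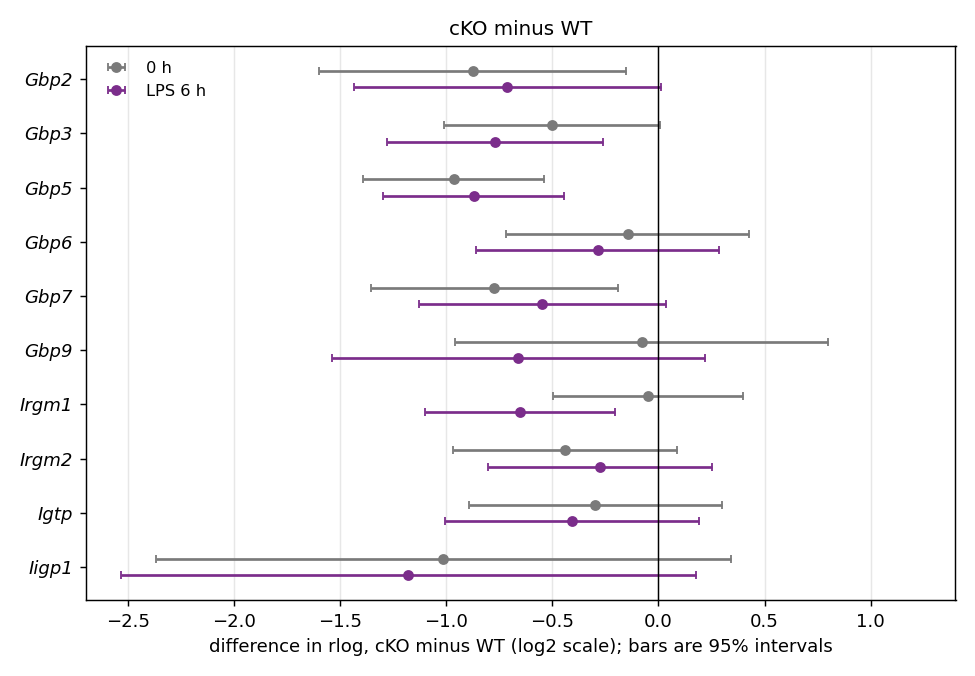
Difference in rlog between cKO and WT (x axis, log2 scale) for each gene (y axis) at 0 h and after LPS, with bars for the 95% interval of the limma model. All points of this fit lie below 0 (Irgm1 at 0 h was 0.028 with quantile normalization), and after LPS the intervals of Gbp3, Gbp5 and Irgm1 leave out 0.

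Some markers of cell types also differed between the genotypes. The markers of each list were summed after rlog was taken off the log2 scale, and each sum is given as its log2. The summed macrophage markers were 19.16 to 19.45 in the WT samples and 18.37 to 18.69 in the cKO samples, a sum that Lyz2 dominates. After LPS 2 of the 7 markers were lower in cKO with limma, Itgam (-1.11) and Mertk (-1.10), against 2.46% of all tested genes. The summed neutrophil markers were 6.84 to 8.14 in WT and 7.95 to 8.77 in cKO, a sum that S100a8 dominates, with 6 of the 8 genes below the filter. After LPS the 2 genes past the filter had higher means in cKO, S100a8 (8.29 against 7.42) and Camp (6.23 against 5.40), and 0 passed with limma. Below the filter, S100a9 (1.31 in cKO against 1.81 in WT), Ngp (2.72 against 3.26) and Ltf (1.47 against 1.96) were lower. The T and NK cell sum was 3.91 to 4.35, with none of 8 genes past the filter. Fewer cells of a type and less RNA per cell cannot be told apart in bulk RNA, and the part of cell makeup in the differences between genotypes was not tested.

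Levels were compared between genes per length, as rlog minus the log2 of the exon length in kb. Gbp2 was the highest of the 10 in each group, at a mean of 10.52 in WT at 0 h, 14.07 in WT after LPS, 9.64 in cKO at 0 h and 13.36 in cKO after LPS. In WT at 0 h the order went on with Igtp (9.28), Gbp3 (8.32), Irgm1 (8.20), Irgm2 (7.17), Gbp7 (7.17), Gbp6 (5.80), Gbp9 (5.34), Iigp1 (4.55) and Gbp5 (3.13). Gbp3 and Irgm1, Irgm2 and Gbp7, Gbp6 and Gbp9, and Gbp9 and Iigp1 overlapped in their samples. In WT after LPS it was Gbp3 (12.20), Igtp (12.05), Irgm1 (10.98), Gbp7 (10.45), Iigp1 (10.09), Irgm2 (9.21), Gbp5 (8.68), Gbp6 (8.60) and Gbp9 (8.59). There Gbp3 overlapped Igtp, and the last 3 overlapped each other. Gbp5, which rose the most, thus started lowest and stayed in the lower ranks, whereas Iigp1 passed from the ninth place to the sixth.

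In cKO at 0 h the per-length order after Gbp2 was Igtp (8.99), Irgm1 (8.15), Gbp3 (7.82), Irgm2 (6.73), Gbp7 (6.39), Gbp6 (5.65), Gbp9 (5.26), Iigp1 (3.53) and Gbp5 (2.16). Gbp2 and Igtp, Irgm1 and Gbp3, and each neighbour from Irgm2 to Gbp9 overlapped. In cKO after LPS it was Igtp (11.65), Gbp3 (11.42), Irgm1 (10.33), Gbp7 (9.90), Irgm2 (8.93), Iigp1 (8.91), Gbp6 (8.31), Gbp9 (7.93) and Gbp5 (7.81). Irgm2 overlapped Iigp1, and Gbp9 overlapped Gbp5. The place of Gbp6 is uncertain for the reason given above.

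The 10 genes followed one another closely over the 8 samples. Each gene's Pearson correlation with the mean of the other 9 was between 0.977 (Gbp2) and 0.997 (Igtp), a description that rests mainly on the step from 0 h to LPS. Among 10377 other tested genes, those most like the mean profile over the 8 samples were Gpr55 (r = 0.9986), Cflar (0.9986), Ifit1 (0.9983), Phf11b (0.9981) and Cmpk2 (0.9979). Ifit1 is an interferon-induced RNA-binding protein, Cmpk2 a nucleotide kinase of the mitochondria and Cflar an inhibitor of caspase-8. The WT samples of Ifit1 had 12.17 and 11.55 at 0 h and 16.02 and 15.70 with LPS. Its cKO samples had 10.74 and 11.85 at 0 h and 15.19 and 14.92 with LPS. Its lowest sample was replicate 1 of cKO at 0 h, as in all 10 genes.

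Related GTPase genes were counted from a list of 17, of which 16 were tested and Irgc1 was below the filter. Gvin1 and Gm4070 are on this list but are neither GBPs nor IRGs. All 16 rose with LPS in WT and 15 in cKO, against 22.5% and 19.6% of all tested genes. The largest rises were those of the effector IRG Tgtp1 (5.25 in WT and 4.82 in cKO) and of Gbp4 (5.23 and 4.99). Tgtp2 (4.44 and 3.64) is a near copy of Tgtp1. Gbp11 (3.80 and 3.29), Gm12250 (3.19 and 2.58), which encodes the effector Irgb10, and Ifi47 (3.12 and 2.79) followed. The rest were Gbp2b (2.79 and 1.87), Gm4951 (2.57 and 1.99), Gbp10 (2.16 and 1.80), F830016B08Rik (2.11 and 1.60), Gm5431 (2.03 and 1.56), Gm4070 (1.76 and 1.28), Gvin1 (1.62 and 0.85), 9930111J21Rik2 (1.54 and 0.44), 9930111J21Rik1 (1.45 and 1.11) and Gbp8. Gbp8 rose by 1.36 in WT, and its difference of 0.61 in cKO did not pass (limma adjusted p = 0.076).

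Between genotypes, 0 of these 16 genes passed at 0 h with limma, with a median difference of -0.02 and 8 of 16 below 0 (0.05 and 7 of 16 with quantile normalization). After LPS 2 were lower, Gbp2b (-1.10, limma adjusted p = 0.0317) and 9930111J21Rik2 (-0.96, limma adjusted p = 0.0178). Gbp2b, which lies between Gbp3 and Gbp2 on chromosome 3, was 6.68 and 6.49 in WT after LPS and 5.27 and 5.71 in cKO. The median was -0.57, 15 of 16 were below 0 (14 with quantile normalization) and 13 of 16 did not overlap in that direction, against 29.7% of all tested genes. The exception was Gbp8, at 8.06 and 8.14 in WT and 8.20 and 8.45 in cKO after LPS, a difference of 0.23. It was also higher in both cKO samples at 0 h, 7.51 and 7.92 against 6.39 and 7.08, a difference of 0.97 that did not pass. The 2 calls stand against 2.46% of all tested genes. After LPS 7 of the 17 were lower in the authors' deposited table, against 1.61% of its genes. The interaction passed for 0 of 16, with a median of -0.51 against -0.13 for the 10 genes. Its 16 values were all below 0 (15 with quantile normalization), from -1.10 (9930111J21Rik2, limma adjusted p = 0.643) to -0.24 (Gbp4).

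The interferon signalling list held 26 genes, of which 24 were tested. Interferon beta itself, Ifnb1, was below the filter. Its WT samples had an rlog of 1.54 and 1.60 at 0 h and of 4.24 and 3.29 with LPS. Its cKO samples had 1.52 and 1.85 at 0 h and 2.94 and 2.47 with LPS. Both cKO samples after LPS were below both WT samples, as for 29.7% of all tested genes. In the authors' deposited table Ifnb1 rose with LPS in WT (log2 fold change 5.63, adjusted p = 4.64e-06) and did not pass in cKO (2.85, 0.111). Its difference between genotypes after LPS was -2.11 in the authors' deposited table and did not pass (adjusted p = 0.0638). Ifng, the gene of interferon gamma, was between -0.80 and -0.48 in all 8 samples. With LPS 19 genes of the list rose and 1 fell in WT, against 22.5% and 19.7% of all tested genes. In cKO 18 rose and 1 fell, against 19.6% and 17.5%. The factor Batf2 (3.49 in WT and 3.82 in cKO), the interferon-induced brake Usp18 (3.27 in WT) and the factor Irf1 (3.08 in cKO) rose most. The receptor chain gene Ifngr1 fell by 1.80 in WT and 1.20 in cKO.

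No gene of that list passed between genotypes at 0 h with limma, and 21 of 24 were below 0 with a median of -0.23. Over all tested genes 6020 of 11543 were below 0, with a median of -0.01. Ifnar1, a chain of the type I interferon receptor, was 10.28 and 9.90 in WT and 9.24 and 8.97 in cKO at 0 h, a difference of -0.99 (SE 0.16, limma adjusted p = 0.0707). The authors' deposited table called it lower at 0 h (-1.09, adjusted p = 0.0036). After LPS 1 was higher and 2 were lower in cKO, against 1.51% and 2.46% of all tested genes. Ifnar1 was 10.70 and 10.50 in WT and 9.53 and 9.55 in cKO, a difference of -1.06 (SE 0.16, limma adjusted p = 0.0178). Jak1, the kinase bound to both interferon receptors, differed by -0.54 (SE 0.12, limma adjusted p = 0.0487), and the authors' deposited table did not call it (-0.54, adjusted p = 0.13). Socs1, an inhibitor of JAK kinases, was 8.35 and 8.55 in WT and 9.68 and 9.47 in cKO, a difference of 1.13 (SE 0.21, limma adjusted p = 0.0275). The median of the list after LPS was -0.21, against -0.03 over all tested genes.

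Loading of IRGs and GBPs onto vacuoles needs the ATG proteins that conjugate LC3-like proteins, and ubiquitin adaptors follow. Of 15 such genes 6 rose and 4 fell with LPS in WT, against 22.5% and 19.7% of all tested genes. In cKO 4 rose and 4 fell, against 19.6% and 17.5%. Trim21, a ubiquitin ligase, rose by 2.55 in WT and 2.35 in cKO, and the adaptors Optn (1.30 in WT) and Sqstm1 (1.13 in cKO) also rose. Atg7, the activating enzyme of the conjugation, fell by 1.29 in WT and 1.08 in cKO, and Map1lc3b fell by 0.81 and 0.86. Between genotypes none passed at 0 h. After LPS Map1lc3a was higher in cKO (1.33, limma adjusted p = 0.0156) and the adaptor Tax1bp1 was lower (-0.85, limma adjusted p = 0.0156). Over all tested genes 1.51% were called higher and 2.46% lower. Atg3, the conjugating enzyme, had the widest difference of the list and did not pass with limma (1.65, SE 0.65, limma adjusted p = 0.186). Its values were 7.85 and 8.58 in WT and 9.33 and 10.41 in cKO. The authors' deposited table called Atg3 higher (1.96, adjusted p = 8.45e-06). Gbp2 and Gbp5 are prenylated, and of 6 enzymes of prenylation and the steps after it 0 passed in any of the 5 comparisons.

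Among 11 inflammasome and pyroptosis genes, the outputs that GBPs help to trigger, 8 rose and 1 fell with LPS in each genotype. Of all tested genes 22.5% rose and 19.7% fell in WT, and 19.6% rose and 17.5% fell in cKO. Il18 rose by 3.30 in WT and 2.90 in cKO, Il1b by 3.14 and 2.98, and the sensor gene Nlrp1b fell by 1.18 and 1.05. Il1b was the 1 gene of the list called between genotypes after LPS with limma, against 2.46% of all tested genes called lower. Its values were 13.16 and 12.70 in WT and 11.47 and 11.61 in cKO, a difference of -1.39 (SE 0.26, limma adjusted p = 0.0294). At 0 h none of the list passed with limma, where Il1b was at -1.23 (SE 0.26, limma adjusted p = 0.142). The authors' deposited table called Il1b lower at 0 h (-1.43, adjusted p = 0.000914) as well as after LPS (-1.47, adjusted p = 3.66e-08). It also called Casp1 lower after LPS (-0.68, adjusted p = 0.039), a gene at -0.67 in the rlog fit (limma adjusted p = 0.0623).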

How the data were processed

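Poly(A) RNA of 8 samples was sequenced. Tools listed in the submitters' processing notes, with no role for any, are HISAT2 2.1.0, featureCounts, DESeq2 and CASAVA, with the build GRCm38. The sources used here do not give the annotation, the strand setting or the handling of reads with several matches. The authors deposited 1 table of log2 values after a regularised log transformation (rlog). Per the file headers, it also holds, for 4 comparisons, the authors' p-values, raw and adjusted, and log2 fold changes. Differences of rlog understate the change of low genes.

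The test covered the 11543 of 55226 genes whose rlog averaged 3 or more. In limma 3.58.1 (R 4.3.3), a linear model of the 4 groups was fitted over the 8 samples together (eBayes with a variance trend), with 4 residual degrees of freedom. P-values are two-sided and adjusted by Benjamini-Hochberg over all tested genes, with a threshold of 0.05, for 5 comparisons. Comparisons share samples: each LPS comparison shares its groups with both genotype comparisons. The fit was tested on simulated data. Alternatives were other filters, scalings and variance models, only the groups compared, a replicate block and leaving out each sample.

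The erythroid marker list is not reported here. The members and lists were chosen with earlier results of these data known. All 10 members, all listed relatives, Paxip1 and the 5 genes most like the members' mean profile (no Gm or Rik names) are named. From each pathway list up to 2 of the largest rises and falls past the threshold are named; Ifnb1, Ifng, Atg3 and Casp1 were added after their values were seen. Promoter sequences are from RefSeq (GRCm38.p6).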

Additional observations from a re-analysis of the deposited data

How the results depend on the processing

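All 10 genes remained higher with LPS in both genotypes under every alternative run, and 0 of 10 passed between genotypes at 0 h or in the interaction under any. After LPS the count of genes lower in cKO was 1 (Gbp5) with limma. It was 0 without a filter on low values, with quantile normalization and without a variance trend, 3 with only the 4 samples compared, and 0 to 2 on leaving out 1 sample, with 2 (Gbp5 and Irgm1) without either cKO sample at 0 h. It stayed at 1 with a minimum mean rlog of 5, with median-centred samples, with robust variance and with a replicate block. The replicate numbers were not treated as pairs, since the labels do not say what they mark and the deviations of same-numbered samples correlated at -0.04 to 0.31. Between genotypes after LPS 458 genes were called over all tested, against 804 with the replicate block, 208 with no filter, 235 with quantile normalization and 301 without a trend. Leaving out 1 sample gave 0 (either cKO sample after LPS) to 582, and 14 without WT replicate 1 after LPS. At 0 h 29 were called, against 72 with the block, 114 with no filter, 9 without a trend and 0 with only the 4 samples compared. Leaving out 1 sample gave 2 (WT replicate 1 at 0 h) to 128 (cKO replicate 1 at 0 h), and 6 or 7 without cKO replicate 2 at 0 h or either cKO sample after LPS. For the interaction 0 were called, and 10 with no filter. In cKO 4275 genes were called with LPS, and 2845 and 2684 without replicate 1 or 2 of cKO after LPS. The after-LPS differences of the 10 kept their sign under 16 alternatives, but quantile normalization shrank 7 of them by over 1.5 times, Irgm1 to -0.34 and Gbp3 to -0.38 among them. With quantile normalization the difference of Irgm1 at 0 h turned to 0.028, and the interaction of Gbp3 to 0.12, of Gbp6 to 0.0459, of Igtp to 0.16 and of Iigp1 to 0.19; the cause was not tested. On leaving out 1 sample the differences at 0 h ran from -0.55 to 0.26 for Gbp6, -0.60 to 0.44 for Gbp9, -0.34 to 0.24 for Irgm1 and -0.69 to 0.10 for Igtp. Likewise the interaction ran from -0.34 to 0.66 for Gbp2, -0.57 to 0.0232 for Gbp3, -0.12 to 0.31 for Gbp5, -0.55 to 0.27 for Gbp6, -0.24 to 0.69 for Gbp7, -0.15 to 0.48 for Irgm2, -0.51 to 0.29 for Igtp and -1.04 to 0.71 for Iigp1. A group left with 1 sample was assumed to vary like the others. Depth is unknown, and 2 samples per group limit what can be seen.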
